A study of Mus musculus with 11 samples.

Results

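All deposited binding regions of Foxp3 in mouse regulatory T (Treg) cells were set against an equally long list of Ets1 binding positions from the same cell type, so that 2 maps of one cell type could be compared across the genome without a difference in list length. The Foxp3 members were all intervals of the deposited list, each 200 bp wide and taken at its midpoint. The Ets1 members were chosen by score, as the same number of positions with the highest score among 226148 deposited for the Treg Ets1 library. In equal parts, the 2 lists together hold 5772 of the 1061984 intervals and positions in all 6 deposited lists. The last Ets1 position inside the list had a score of 9.8371 and a 3.71-fold enrichment, and the first one outside had a score of 9.8366 and a 16.6-fold enrichment. Score and fold enrichment are the authors' values per position. In the Ets1 list the fold enrichment ran from 0.768 to 266, with a median of 8.90.

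Both factors were mapped by chromatin immunoprecipitation and sequencing (ChIP-seq) in Foxp3-positive CD4+ T cells of lymph nodes and spleen, taken from mice about 8 weeks old and sorted by green fluorescent protein (GFP), which marked Foxp3. The labels give no strain, treatment, sex or number of animals. The Foxp3 list was made by the authors from 3 libraries, replicate 1 as 2 technical replicates and replicate 2, with a custom polyclonal antibody that was affinity purified. Ets1 was mapped in 1 library with a commercial antibody. The 4 other lists, used below as readouts that played no part in choosing the members, came from 1 library each: Ets1 and Elf1 in Foxp3-negative CD4+ T cells (CD4), and Elf1 and Cbfb in Treg cells. Of these, CD4 Ets1 was mapped with the same antibody as Treg Ets1 and is not an independent readout of it. Since each factor had 1 list, no difference had a replicate check, and no test across samples was possible. The intervals given are 95% intervals, exact Clopper-Pearson for shares and exact Poisson for counts per length. Intervals of ratios were taken from those of the shares, and intervals of differences combine the bounds of both shares as a root of summed squares. They cover counting error only and treat sites as independent, which sites within a cluster are not. The number of reads per library was not known, and the maps hold no expression data with which to check the cell type.

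As background, Foxp3 is a forkhead transcription factor needed for the development and function of Treg cells, which restrain other T cells. Ets1 is a founding member of the ETS family, expressed in T cells whether or not they carry Foxp3, and Elf1 is another member of that family, with a related DNA-binding domain. Cbfb binds no DNA itself and is the partner of the Runx proteins. Factors of these families bind mainly at promoters and enhancers, which are not spread evenly over chromosomes.

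Both lists were distributed over chromosomes in much the same way. Chromosome 11 was the densest chromosome for both, with 20.4 Foxp3 sites per 10 Mb (17.9 to 23.1) and 23.4 Ets1 sites per 10 Mb (20.8 to 26.3). Chromosome 14 was the sparsest numbered chromosome for Foxp3, at 6.55 per 10 Mb (5.21 to 8.13), and chromosome 18 for Ets1, at 7.16 per 10 Mb (5.53 to 9.13). The order of these neighbours was within counting error, since chromosome 14 held 7.27 Ets1 sites per 10 Mb and chromosome 18 held 7.16 Foxp3 sites per 10 Mb. Across the 19 numbered chromosomes the 2 densities had a Pearson correlation of 0.89 and a Spearman correlation of 0.81, given as a description, since chromosomes share gene density and mappability between lists. Densities also went with the number of protein-coding genes per Mb in RefSeq's GRCm38.p6 table, with Spearman correlations of 0.65 for Foxp3 and 0.63 for Ets1 over the same 19 chromosomes.

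**Figure D1:**
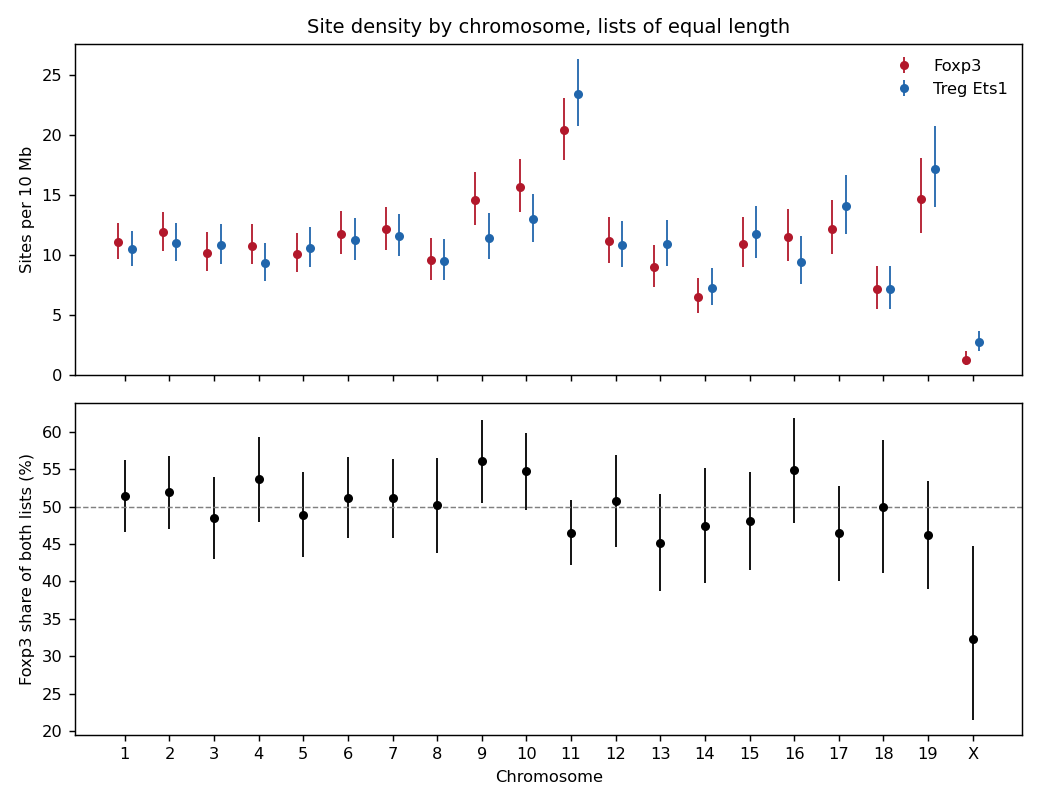
Upper panel: sites per 10 Mb on each chromosome for the Foxp3 (red) and Treg Ets1 (blue) lists, with exact Poisson 95% intervals. Lower panel: Foxp3 sites as a share of the sites of both lists, with exact Clopper-Pearson 95% intervals and a dashed line at 50%. Chromosome 11 is the densest for both lists, and X has the lowest Foxp3 share, 32.4%.

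Per gene the picture differed from that per length. Chromosome 10 carried 20.4 Foxp3 sites per 100 protein-coding genes and chromosome 12 carried 19.9, while gene-rich chromosome 7 carried 9.11. The Ets1 list had 16.9, 19.3 and 8.72 sites per 100 genes on chromosomes 10, 12 and 7. Chromosome 11, first in density per length, had 15.4 Foxp3 sites and 17.7 Ets1 sites per 100 genes, inside the range of the other numbered chromosomes for both lists.

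The chromosome that set the 2 lists apart most was X. It carried 22 Foxp3 sites and 46 Ets1 sites, so that Foxp3 made up 32.4% of both lists there (21.5 to 44.8), against 50.3% (49.0 to 51.6) over the numbered chromosomes. The Foxp3 to Ets1 ratio was 0.478. The next lowest ratio was 0.824, on chromosome 13, with 108 Foxp3 sites and 131 Ets1 sites. At the other end chromosome 9 carried 181 Foxp3 and 142 Ets1 sites, a ratio of 1.27 and a share of 56.0% (50.4 to 61.5). Chromosomes 16 and 10 followed, with ratios of 1.22 and 1.21 and intervals that included 50%. Of the 20 chromosomes, the interval lay above 50% for 1, chromosome 9, and below 50% for 1, X (5% of chromosomes in each direction). Chromosome 9 did not keep this place when each cluster of sites was counted once, with 135 Foxp3 and 112 Ets1 groups and a share of 54.7% (48.2 to 61.0), whereas X did, with 20 and 42 groups and 32.3% (20.9 to 45.3). On X the lists of equal length from the other libraries held 23 CD4 Ets1, 29 Treg Elf1, 26 CD4 Elf1 and 218 Treg Cbfb positions, so that Foxp3 stood near CD4 Ets1, at a ratio of 0.957 (0.508 to 1.80). Scaled to equal length, the ratio of Foxp3 to Treg Ets1 on X was 0.635 (0.325 to 1.26) with the 1500 highest Ets1 positions and 0.267 (0.165 to 0.413) with the 10000 highest, and with Ets1 ranked by fold enrichment it was 0.0775 (0.0478 to 0.1196). Outside chromosomes 1 to 19 and X, the Ets1 list had 16 positions on unplaced contigs and the Foxp3 list 2.

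The nearest sites of the 2 lists were often within 100 bp of each other and seldom at distances just beyond 300 bp. Of the Foxp3 peaks, 873 (30.2%, 28.6 to 32.0) had a site of the Ets1 list at most 200 bp from the edge of their interval, that is within 300 bp of the midpoint, and are called shared. Seen from Ets1, 832 sites (28.8%, 27.2 to 30.5) were shared with a Foxp3 peak. Among shared Foxp3 peaks the median distance to the Ets1 site was 57 bp, with quartiles of 24 and 97 bp. The Ets1 site lay at a lower coordinate in 470 of them, at a higher one in 397 and at the midpoint itself in 6, with a median signed offset of -8 bp, small beside the spread. The number of Foxp3 peaks whose nearest Ets1 site lay at a given distance fell from 672 within 100 bp to 153 between 100 and 200 bp and 48 between 200 and 300 bp. Between 300 bp and 1 kb there were 118 peaks, and between 1 and 10 kb 317.

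Peaks that were not shared were still often in the neighbourhood of the other factor. Of 2013 Foxp3 peaks without a shared Ets1 site, 435 (21.6%, 19.8 to 23.5) had one within 10 kb and 1125 (55.9%, 53.7 to 58.1) within 100 kb. For the 2054 unshared Ets1 sites, of which 2053 had a Foxp3 peak on their chromosome or contig, the same shares were 18.5% (16.8 to 20.2) and 47.7% (45.5 to 49.9). Their median distances to the nearest site of the other list were 75742 bp from Foxp3 peaks and 112447 bp from Ets1 sites. At 100 kb, over all sites, 69.2% (67.5 to 70.9) of Foxp3 peaks had an Ets1 site and 62.8% (61.0 to 64.6) of Ets1 sites had a Foxp3 peak, so more of the Ets1 list lay away from Foxp3 than the reverse.

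**Figure D2:**
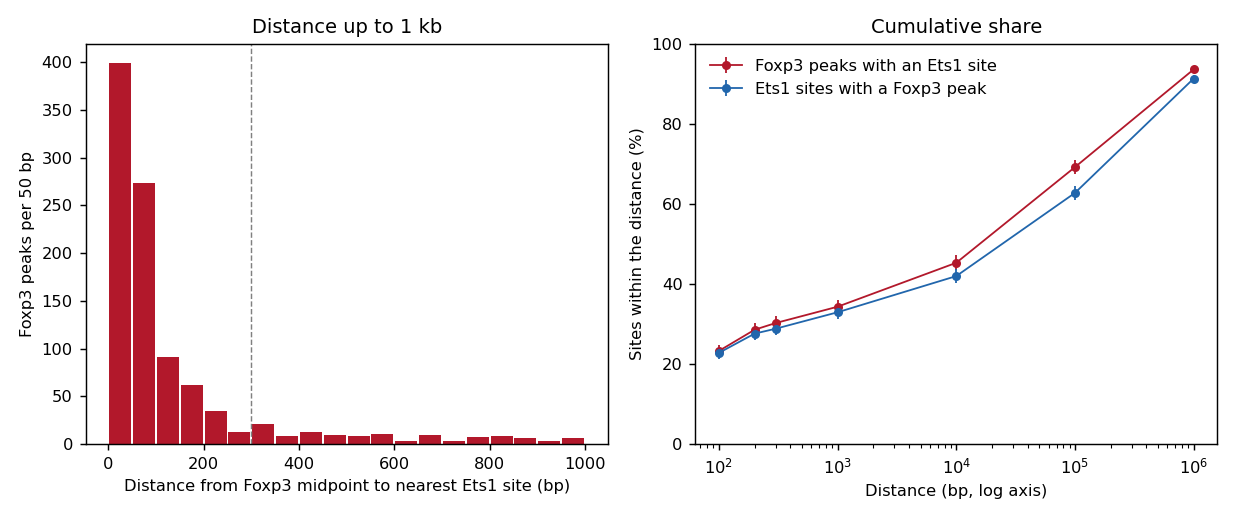
Left: number of Foxp3 peaks per 50 bp of distance between their midpoint and the nearest site of the Ets1 list, up to 1000 bp, with a dashed line at 300 bp, the limit for a shared site. Right: share of Foxp3 peaks (red) and of Ets1 sites (blue) with a site of the other list within a distance, on a log axis, with 95% intervals. The 672 peaks within 100 bp stand over a low level beyond 300 bp, and the curves part at 100 kb, at 69.2% and 62.8%.

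Ets1 sites in the middle of the list were shared somewhat more often than those at its lower end. The share with Foxp3 was 28.0% (24.1 to 32.2) for score ranks 1 to 500, 33.6% (29.5 to 37.9) for the 500 sites from rank 1001 on, and 24.4% (20.2 to 29.0) for the last 386 sites. By fold enrichment it was 23.8% (19.4 to 28.7) for the 344 sites under 4-fold, 32.0% (29.5 to 34.6) for the 1321 sites from 4- to under 10-fold and 22.3% (17.3 to 28.0) for the 251 sites of 30-fold and over. Sharing was thus lower at both ends of the enrichment range than in the class from 4- to under 10-fold, and the intervals of the extreme classes overlapped. The column used to rank the Ets1 positions mattered far more. In a list of the same length ranked by fold enrichment, 428 positions were also in the score list and 284 lay on X. Of the Foxp3 peaks, 6.999% (6.10 to 7.99) had a position of that fold-ranked list. Its median score was 5.14, at a median score rank of 18809.5. A false discovery rate of at most 0.01 was met by 2210 of its positions, but by every position of the score list.

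The share of Foxp3 peaks with an Ets1 site also differed between chromosomes. It was highest on chromosome 6, at 39.8% (32.5 to 47.4), and on chromosome 10, at 37.3% (30.6 to 44.3). The lowest share on a numbered chromosome was that of chromosome 18, 12.3% (5.47 to 22.8), where 8 of 65 peaks were shared although both lists held 65 sites there. X had 4 shared peaks of 22. Of the Ets1 sites, 18.3% (12.1 to 26.0) were shared on chromosome 13 and 42.6% (35.04 to 50.4) on chromosome 10.

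The 4 libraries that had not been used to choose the sites differed between shared and unshared sites. At Foxp3 peaks CD4 Ets1 is no independent readout, since peaks were called shared by a Treg Ets1 position from the same antibody. Shares that combine CD4 Ets1 with other libraries carry the same limit. CD4 Ets1 and both Elf1 libraries also differed between the 2 kinds of unshared site. For Treg Cbfb, unshared Foxp3 minus unshared Ets1 was only 1.90 percentage points (0.362 to 3.45). A position of CD4 Ets1, among that library's 10000 highest by score, lay within 200 bp of 87.6% of shared Foxp3 peaks (85.3 to 89.7) and of 59.7% of unshared ones (57.5 to 61.8). Treg Cbfb was present at 17.3% (14.8 to 19.97) of shared and 7.35% (6.25 to 8.58) of unshared Foxp3 peaks. Both CD4 Ets1 and Elf1 of either cell type were present at 65.3% of shared Foxp3 peaks (62.0 to 68.5), against 44.7% (42.5 to 46.9) of unshared ones. None of the 4 libraries had a position at 4.70% (3.39 to 6.32) of shared and 21.8% (19.97 to 23.6) of unshared Foxp3 peaks.

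CD4 Ets1 and Elf1 differed in opposite directions between unshared Foxp3 peaks and unshared Ets1 sites, though CD4 Ets1 is no independent readout here. Treg Elf1 was present at 47.7% (45.5 to 49.9) of unshared Foxp3 peaks and at 35.005% (32.9 to 37.1) of unshared Ets1 sites. CD4 Elf1 was present at 52.9% (50.6 to 55.1) and 39.3% (37.2 to 41.5). CD4 Ets1, in contrast, was present at 75.02% (73.1 to 76.9) of unshared Ets1 sites, above the 59.7% of unshared Foxp3 peaks. CD4 Ets1 without any Elf1 was the pattern at 36.8% (34.7 to 38.9) of unshared Ets1 sites, at 14.95% (13.4 to 16.6) of unshared Foxp3 peaks and at 22.3% (19.6 to 25.2) of shared ones. Treg Ets1 and CD4 Ets1 were mapped with the same antibody, so what the antibody and what the factor contribute to this pattern cannot be told apart. The direction of the Elf1 and the CD4 Ets1 differences was the same with 5000 and 20000 positions per library and at 100 and 500 bp, while the Elf1 differences ranged from 4.04 to 20.7 percentage points.

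**Figure D3:**
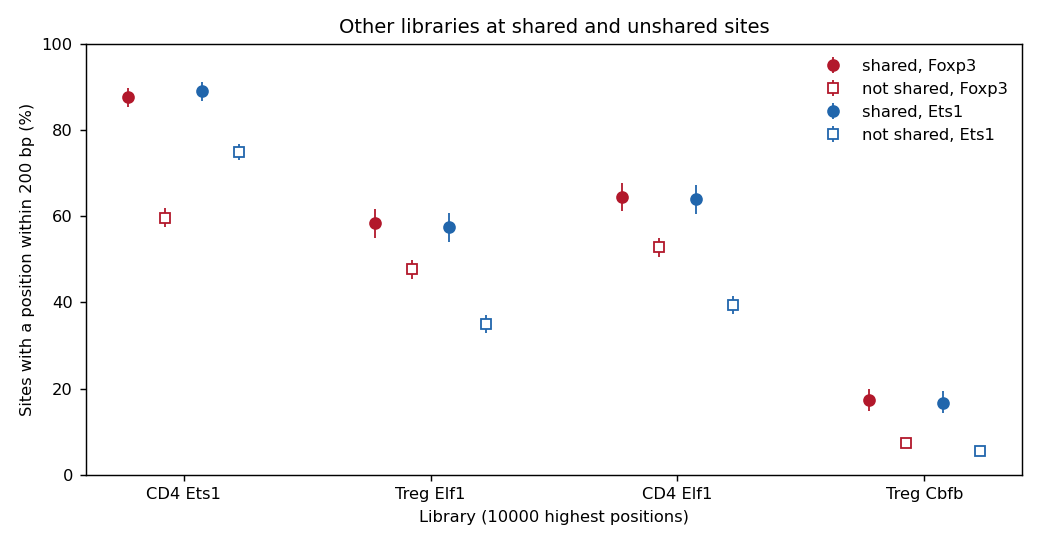
Share of sites with a position of another library within 200 bp, among the 10000 highest positions of that library, with 95% intervals. Filled circles are shared sites and open squares unshared ones, of Foxp3 (red) and Treg Ets1 (blue). For CD4 Ets1 the open blue square, 75.02%, lies above the open red one, 59.7%, and for both Elf1 libraries the order is the opposite.

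Most Foxp3 peaks outside the Ets1 list still had a deposited Ets1 position of lower rank. Of the 2013 unshared peaks, 1794 (89.1%) had an Ets1 position of any rank within 300 bp of the midpoint, and 219 had none. Among the peaks with one, the best position had a median score rank of 10114.5, with quartiles of 5181.5 and 29476, and a median fold enrichment of 4.85. Ranks up to 10000 covered 887 of the peaks, and 1537 (76.4%) had a position at a false discovery rate of at most 0.01. Positions of any rank thus include some that miss this limit. No such shares were computed for places chosen without Foxp3, so whether these exceed what 226148 deposited positions give anywhere was not tested. The split into shared and unshared peaks therefore follows the length of the Ets1 list: 17.3% of Foxp3 peaks were shared with the 1500 highest positions and 61.0% with the 10000 highest.

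At gaps of 10 kb, 1113 Foxp3 sites (38.6%, 36.8 to 40.4) stood in 457 clusters of 2 or more and 970 Ets1 sites (33.6%, 31.9 to 35.4) in 367 clusters. The Foxp3 list thus had more but smaller clusters: 14 of them held 5 or more sites and the largest held 8, against 30 clusters of 5 or more and a largest of 14 for Ets1. Lists of the same length from the other libraries were less clustered, with 25.8% (24.3 to 27.5) of CD4 Ets1, 14.97% (13.7 to 16.3) of Treg Elf1, 11.5% (10.4 to 12.8) of CD4 Elf1 and 4.82% (4.06 to 5.66) of Treg Cbfb positions in clusters. The difference of 4.95 percentage points (2.45 to 7.45) between Foxp3 and Ets1 depended on the gap allowed. At gaps of 25 and 50 kb it was 7.42 points (4.82 to 9.996) and 7.03 points (4.44 to 9.61), and at 5 kb it was 1.49 points (-0.886 to 3.86). Up to 1 kb the Foxp3 list had 267 gaps between neighbours and the Ets1 list 281, while from 1 to 10 kb there were 389 and 322. Foxp3 intervals could overlap, and 81 pairs of neighbouring midpoints were under 200 bp apart, while the smallest gap in the Ets1 list was 219 bp. With both lists thinned so that no sites stood within 500 bp, the shares were 29.7 and 28.4%, and the difference of 1.34 points (-1.09 to 3.78) included 0.

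Ets1 sites in clusters were shared less often than single ones, with a difference of -5.84 percentage points (-9.27 to -2.33), and Foxp3 peaks in clusters more often than single ones, with a difference of 4.14 points (0.638 to 7.68). Overlapping Foxp3 intervals can share the same Ets1 site, and these differences were not recomputed with thinned lists. Ets1 sites standing alone were shared with Foxp3 in 30.8% of cases (28.7 to 32.9), those in clusters of 2 in 27.8% (23.9 to 32.0), and those in clusters of 5 or more in 21.5% (15.8 to 28.1). The median fold enrichment of the Ets1 sites went the other way, from 8.27 for single sites to 12.5 in clusters of 5 or more. For Foxp3 the single peaks were shared in 28.7% of cases (26.6 to 30.8) and those in any cluster in 32.8% (30.04 to 35.6). When the lists were pooled, neighbours of either list within 10 kb formed 3605 groups, of which 1328 held Foxp3 alone, 1388 held Ets1 alone and 889 (24.7%) held both. The mixed groups took 46.02% of Foxp3 and 42.8% of Ets1 sites. Of the 134 groups with 3 or more Foxp3 peaks 102 also held Ets1, and of the 120 groups with 3 or more Ets1 sites 71 also held Foxp3 and 49 did not.

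The fullest clusters showed every degree of overlap. Coordinates are those of the files, in build mm9. No gene annotation of that build was used, so places carry no gene names. The largest Foxp3 cluster, 8 midpoints on chromosome 6 from 48668662 to 48696102, held 5 Ets1 sites, and 5 of its peaks were shared. A cluster of 6 peaks on chromosome 11, from 87558646 to 87573318, coincided with the second largest Ets1 cluster, 12 sites from 87558757 to 87573204, of which 3 were shared. The most enriched site of the whole Ets1 list lay there, at 266-fold, and CD4 Ets1 reached 475-fold, Treg Elf1 30.2-fold, CD4 Elf1 31.5-fold and Treg Cbfb 4.70-fold. In contrast, a cluster of 6 Foxp3 peaks on chromosome 13, from 51849616 to 51871936, held no site of the Ets1 list. Its best Ets1 position ranked 3645, and the Treg Cbfb list of equal length had 2 positions in it, while neither Elf1 list of that length had any. Over positions of any rank, CD4 Elf1 reached 23.5-fold there, Treg Cbfb 18.3-fold, CD4 Ets1 13.4-fold, Treg Elf1 12.2-fold and Treg Ets1 11.3-fold.

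On chromosome 9 a large cluster of each list stood in the same window. A cluster of 7 Foxp3 peaks from 32295228 to 32326126 held 1 Ets1 site, of rank 2775. The largest Ets1 cluster, 14 sites from 32503678 to 32560259, began 177552 bp further on and held 2 Foxp3 peaks. Both stood in the fullest window of the Foxp3 list, between 32 and 33 Mb, with 22 Foxp3 and 19 Ets1 sites in all, where 8 of the 22 Foxp3 peaks (36.4%, 17.2 to 59.3) were shared. The remaining large clusters were, for Foxp3, 6 peaks on chromosome 11 from 52113348 to 52132210, with 4 shared and 2 Ets1 sites. For Ets1 they were 8 sites each on chromosome 11 from 106640852 (1 Foxp3 peak), chromosome 14 from 54823631 (2 peaks) and chromosome 13 from 23609072 (0 peaks).

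The highest-scoring Ets1 sites were a mixture of strong sites with Foxp3 beside them and places without it. The highest score, on chromosome 19 at 5802625 (37.6-fold, lower bound 18.99), was also the highest of the CD4 Ets1 library, 8 bp away, and lay 42922 bp from the nearest Foxp3 peak. The next in score, on chromosome 3 at 5860702 (9.92-fold) and then chromosome 4 at 70039222 (2.25-fold), both lay more than 1 Mb from any Foxp3 peak. The site on chromosome 3 ranked 2 in CD4 Ets1 and 3 in Treg Cbfb, both at 2 bp. The site on chromosome 4 ranked 3 in CD4 Ets1, 1 in Treg Elf1 and 2 in Treg Cbfb as well, at 0 or 1 bp, with folds from 1.90 to 2.72 over the other libraries. A further unshared site, ranked 8 on chromosome 13 at 77578252, was placed at the same base in all 4 other libraries, at 2.78- to 3.59-fold. With positions under 4-fold left out of the Ets1 ranking, 30.2% of Foxp3 peaks (28.5 to 31.9) were shared, as before. Rank 4, on chromosome 11 at 87236454 (43.7-fold), had a Foxp3 midpoint 15 bp away, and rank 5, on chromosome 12 at 55797789 (96.5-fold), had one at 64 bp. Another unshared site, ranked 7, lay on chromosome 11 at 108873187 (7.25-fold), 100763 bp from Foxp3, and ranked 26 in CD4 Ets1 and 10 in Treg Cbfb. Thus 4 of the 5 highest unshared sites, all but the one on chromosome 19, had one of the 10 highest positions of Treg Cbfb at most 119 bp away. These 4 places were not particular to Cbfb. CD4 Ets1 had a position at most 10 bp from each, at ranks 2 to 26, and both Elf1 libraries had one at most 27 bp away. Enrichment at them was low, at 2.25- to 9.92-fold for Treg Ets1 and 2.39- to 5.08-fold for Treg Cbfb.

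Over windows of 1 Mb the landscapes were alike in how uneven they were. Of 2649 windows, 1019 (38.5%) held a Foxp3 site and 1069 (40.4%) an Ets1 site. Both lists occupied 780 windows, 59.6% (56.9 to 62.3) of those with either, while 239 held Foxp3 alone and 289 Ets1 alone. The variance of the counts was 3.82 times their mean for Foxp3 and 4.02 times for Ets1, and the fullest 10% of windows, 265, took 55.6% and 54.2% of the sites. The counts had a Pearson correlation of 0.63 and a Spearman correlation of 0.66 across windows, as a description. With shared sites left out of both lists the values were 0.38 and 0.46, so densities went together also for sites outside the shared set. That set depends on list length, and 89.1% of unshared Foxp3 peaks had an Ets1 position of any rank within 300 bp. For 76.4% the best position had a false discovery rate of at most 0.01. Whether densities went together where the factors did not meet was therefore not tested. Ets1 in Treg was closer to Ets1 in CD4 (Spearman 0.78) than to Foxp3, and Foxp3 was about as close to CD4 Ets1 (0.68) as to Treg Ets1.

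**Figure D4:**
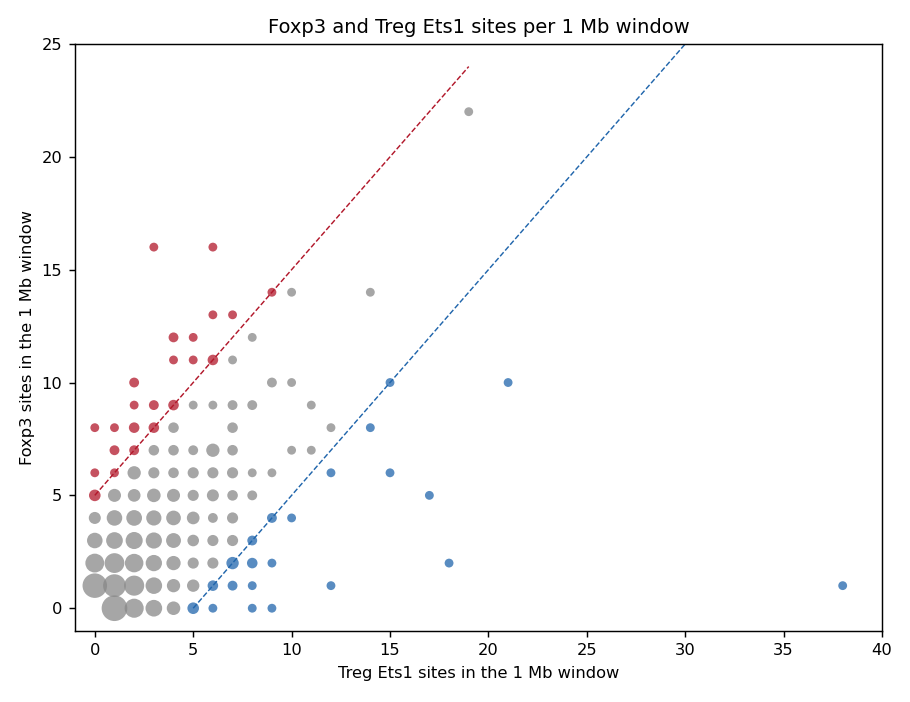
Foxp3 against Treg Ets1 sites in each 1 Mb window with at least 1 site, where the area of a point grows with the number of windows at that place. Windows on or beyond the dashed lines have an excess of at least 5 sites of Foxp3 (red) or Ets1 (blue). The point at 38 Ets1 sites and 1 Foxp3 site is on chromosome 13, and the point at 19 and 22 on chromosome 9.

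A window was taken to favour a list when it held at least 5 more of its sites. This is a fixed difference, and the planned interval of the Foxp3 share per window is not given. Whether the excess in a window goes beyond counting error was not tested, so favouring describes the counts alone. By that rule 40 of 2649 windows (1.51%) favoured Foxp3 and 39 (1.47%) favoured Ets1. Just inside the limit, at exactly 5 sites, were 18 Foxp3 and 20 Ets1 windows, and just outside it, at 4 sites, were 35 and 28. Windows favouring Foxp3 lay on 19 chromosomes and those favouring Ets1 on 14, and 4 and 9 of them had a neighbour that favoured the same list. The largest excess was 13 sites for Foxp3 and 37 for Ets1. Many of these windows owed their place to clusters: counting each 10 kb cluster once left 7 windows for Foxp3 and 12 for Ets1.

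The Foxp3 window with the largest excess, on chromosome 7 between 82 and 83 Mb, held 16 Foxp3 and 3 Ets1 sites, and it remained first with clusters counted once, at 10 groups against 3. The lists of the other libraries cut to the same length had 1 CD4 Ets1, 6 Treg Elf1, 4 CD4 Elf1 and 4 Treg Cbfb positions in it. The second, on chromosome 19 between 53 and 54 Mb, held 16 Foxp3 and 6 Ets1 sites, but these formed 5 groups each. On chromosome 13 between 96 and 97 Mb there were 8 Foxp3 peaks and no Ets1 site, while CD4 Ets1 had 4 positions there. On chromosome 11 between 52 and 53 Mb, 10 Foxp3 peaks stood beside 2 Treg Ets1 and 7 CD4 Ets1 positions and no Elf1 position. The window on chromosome 8 between 74 and 75 Mb, with 12 Foxp3 and 4 Ets1 sites, had 10 Treg and 9 CD4 Elf1 positions. The other 5 of the 10 largest, on chromosomes 8, 14, 4 and 10, held 8 to 12 Foxp3 and 1 to 5 Ets1 sites.

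The Ets1 windows were led by a stretch of chromosome 13. Between 21 and 24 Mb, 3 adjoining windows held 58 Ets1 sites, 2.01% of the list, and 2 Foxp3 peaks. Most of them lay in the last window, between 23 and 24 Mb, with 38 Ets1 sites in 11 groups and 1 Foxp3 peak. These 58 sites were strongly enriched, at a median of 14.8-fold and up to 155-fold, and 35 of them were among the 500 highest scores. They were present in Foxp3-negative cells too: 54 (93.1%, 83.3 to 98.1) had a CD4 Ets1 position, whereas Treg Elf1 was at 9 of them (15.5%, 7.35 to 27.4), CD4 Elf1 at 13 (22.4%, 12.5 to 35.3) and Treg Cbfb at 0 (upper limit 6.16%). Over all unshared Ets1 sites the shares were 75.02% for CD4 Ets1, 35.005% for Treg Elf1, 39.3% for CD4 Elf1 and 5.45% for Treg Cbfb. For Cbfb the stretch therefore did not differ from unshared Ets1 sites beyond its interval. The sites of the stretch were also stronger than unshared Ets1 sites, at a median of 14.8- against 9.19-fold, and formed only 21 groups. Whether the other shares differ between sites of equal strength was not tested. In further windows, among them the 3 that follow, the CD4 Ets1 count was likewise nearer to that of Treg Ets1 than to that of Foxp3. On chromosome 11 between 68 and 69 Mb, 18 Treg and 17 CD4 Ets1 positions stood beside 2 Foxp3 peaks, 6 and 7 Elf1 positions and 4 Cbfb positions. On chromosome 3 between 96 and 97 Mb, 17 Treg and 12 CD4 Ets1 positions stood beside 5 Foxp3 peaks in 1 group, of which 3 were shared. On chromosome 6 between 128 and 129 Mb, 9 and 8 Ets1 positions stood beside no Foxp3 peak.

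As background, most replication-dependent histone genes and many transfer RNA (tRNA) genes of the mouse lie in a few tight groups. In RefSeq's GRCm38.p6 table, 53 of 67 histone genes found by symbol were on chromosome 13, all within 3 Mb, and 10 were on chromosome 3, all within 1 Mb. The fullest 1 Mb of tRNA genes held 59 on chromosome 13, 49 on chromosome 6, 26 each on chromosomes 1 and 3 and 18 on chromosome 11, and chromosome 1 had no window favouring Ets1. That table is on another build than the files, so whether these genes lie in the Ets1 windows was not tested.

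Other Ets1 windows held more Foxp3 or less CD4 Ets1. The window on chromosome 19 between 5 and 6 Mb, which holds the highest score, had 15 Ets1 sites and 6 Foxp3 peaks, of which 4 were shared. It also had 12 CD4 Ets1 positions and as many as 12 Treg and 11 CD4 Elf1 positions. On chromosome 11 between 87 and 88 Mb, 21 Treg Ets1 sites and 18 CD4 Ets1 positions stood beside 10 Foxp3 peaks, 7 of them shared. On chromosome 10 between 77 and 78 Mb the 8 Treg Ets1 sites had 1 CD4 Ets1 position beside them, and on chromosome 14 between 54 and 55 Mb the 9 Treg sites had 5. Over all 39 windows favouring Ets1, the equal-length lists held 376 Treg Ets1, 295 CD4 Ets1, 168 Treg Elf1, 171 CD4 Elf1 and 61 Cbfb positions. Over the 40 windows favouring Foxp3 they held 118, 160, 146, 122 and 61. The windows were chosen on the Foxp3 and Treg Ets1 counts, which are therefore a description, but the other 4 lists took no part in the choice. CD4 Ets1 was mapped with the same antibody as Treg Ets1, and over all windows their counts had a Pearson correlation of 0.85. Its counts in windows chosen on Treg Ets1 are therefore not an independent readout. The gap between windows favouring Ets1 and those favouring Foxp3 was widest for CD4 Ets1, at 295 against 160 positions. It was 171 against 122 for CD4 Elf1 and 168 against 146 for Treg Elf1, and Cbfb counts were equal. These counts have no intervals, and positions within a cluster are not independent. The small gap for Treg Elf1 is therefore not read as a direction.

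**Figure D5:**
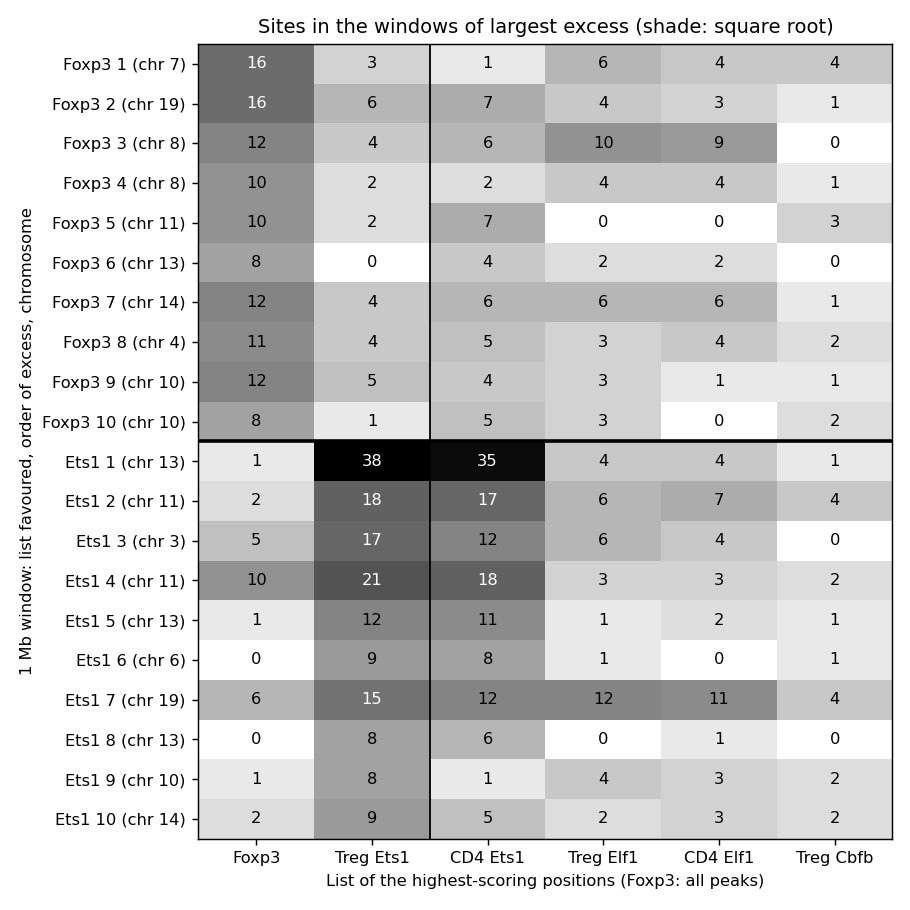
Number of sites of 6 lists in the 10 windows of 1 Mb with the largest Foxp3 excess (above the thick line) and the 10 with the largest Ets1 excess (below it), with shading by the square root of the count. The thin line separates the lists that chose the windows (left) from the others. In most Ets1 windows the CD4 Ets1 column follows Treg Ets1, from 35 against 38 in the first to 1 against 8 in the ninth, while the Elf1 and Cbfb columns do not exceed 12.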

How the data were processed

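The submitters' processing notes name Bowtie 0.12.7 and the build mm9. Peak caller, thresholds and control are not given in the sources used here, and neither is the depth per library, so the precision of single positions is unknown. The authors deposited start and end of each Foxp3 interval, from combined replicates. For the other factors they deposited single positions; per the file headers each has a score, an E-value, its FDR (treated as a q-value) and its fold enrichment, a ratio, with a lower bound.

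Chromosomes 1 to 19 and X were cut into windows of 1 Mb by mm9 lengths, and neighbours at most 10 kb apart formed a cluster. Named places were the 10 windows of largest excess and the 5 largest clusters per list, the 5 highest Ets1 scores, the 5 highest unshared ones, and chromosomes with extreme ratios. The lists, sizes and gene families were chosen with earlier results of these data known. Planned gene names and gene lists were not used, for want of an mm9 annotation. The alternatives were another ranking column, thinning, limits on FDR and fold, list length, other libraries, gaps, windows and distances. Thinning at 500 bp, 1 site per cluster and leaving out 3 windows of chromosome 13 were added after seeing the data. The functions were tested on simulated data. Python 3.11.15, numpy 2.4.6, pandas 2.3.3, scipy 1.17.1 and matplotlib 3.10.9 were used.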

Additional observations from a re-analysis of the deposited data

How the results depend on the processing

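Of 187 values recomputed under other settings, 51 of main results and 24 of other results moved. A value moved when it left the interval of the reported one or, for counts of windows, changed by more than a set factor. Only 1 reversed its sign: with the 10000 highest Ets1 positions the clustered share of Foxp3 minus that of Ets1 was -6.98 percentage points, since a longer list is denser and 45.55% of it was clustered. With that list the X ratio was 0.267, 49.97% of windows with either list held both, 60.98% of Foxp3 peaks were shared, and, scaled to equal length, 25 windows favoured Foxp3 and 8 Ets1. With the 1500 highest positions 27.9% of Ets1 sites were clustered (a difference of 10.7 points), 48.5% of windows held both and 17.3% of Foxp3 peaks were shared. Ranking by fold enrichment gave an X ratio of 0.0775, 16.3% clustered (22.28 points), 42.7% of windows with both, 6.999% shared, and 73 and 17 favouring windows; the cause was not tested. With CD4 Ets1 in place of Treg Ets1 the X ratio was 0.957, 25.8% was clustered (12.7 points), 62.4% of windows held both and 34.7% was shared. With Treg Elf1 14.97% was clustered (23.6 points) and 21.97% shared. Gaps of 5, 25 and 50 kb put 28.7, 41.8 and 51.4% of Ets1 sites in clusters, with differences of 1.49, 7.42 and 7.03 points. Thinning to 500 bp gave 28.4% and 1.34 points. Windows of 0.5 and 2 Mb gave 48.9 and 71.7% with both. Sharing within 500 bp of the interval was 32.7%. An excess of 3 sites gave 134 Foxp3 and 122 Ets1 windows, an excess of 8 gave 7 and 8, and 1 site per cluster gave 7 and 12. Unshared Foxp3 minus unshared Ets1 sites, with 5000 and 20000 positions per library, was -21.02 and -10.7 points for CD4 Ets1, 6.25 and 16.01 for Treg Elf1, and 4.04 and 18.1 for CD4 Elf1. For Cbfb it was 3.56 with 20000, but with 5000 it was 0.54 (-0.80 to 1.88), an interval that included 0. Within 100 and 500 bp it was 15.98 and 6.96 for Treg Elf1, and 20.7 and 6.27 for CD4 Elf1. Thinning Ets1 to 200 bp and the stricter FDR limit left the same list, and numbered chromosomes alone give no X ratio. No paired analysis was possible because the Foxp3 replicates were combined into 1 list and every other factor had 1 library.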
